A study of Homo sapiens with 3 samples.

Results

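The genes described here are 10 listed genes of cellular zinc handling: the metallothioneins MT1E, MT2A and MT1X, the zinc-sensing transcription factor MTF1, the ZnT exporters SLC30A1, SLC30A5 and SLC30A7, and the ZIP importers SLC39A6, SLC39A10 and SLC39A14. They are 10 of the 48162 genes in each file and were found by matching Ensembl identifiers to GENCODE 29 symbols. The list was drawn up with the ratios of these same libraries in view, so its values are a description, and no test of them is given. A mean of at least 1 FPKM (sequenced fragments normalized for transcript length and for library size) over the 3 libraries was reached by 9 of the 10 genes. The exception was MT1X.

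RNA was sequenced from MDA-MB-231, an established human triple-negative breast cancer cell line grown in medium with fetal bovine serum, after a lentivirus infection that the labels give for every culture. The groups were a co-depletion of Geminin and FoxO3, a depletion of FoxO3 and a control, with 1 library each and no replicate. FoxO3 is a forkhead transcription factor, and Geminin is the inhibitor that keeps CDT1 from loading replication origins again within a cell cycle. Neither the depletion sequences nor the control vector is stated in the sources at hand, and both depleted libraries carry a number in their titles that the labels do not explain.

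Metallothioneins are small proteins in which clusters of cysteines bind zinc, copper and cadmium, buffering free zinc in the cytosol. When zinc is high, MTF1 binds it through its zinc fingers and activates genes that carry metal response elements in their promoters, among them the metallothioneins and SLC30A1. ZnT proteins move zinc out of the cytosol, into vesicles or across the plasma membrane, and ZIP proteins bring it in. In breast cancer the family member SLC39A6 is known as LIV-1, an estrogen-responsive gene.

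Recovered totals were 12267332 reads in the co-depletion library, 10760613 in the FoxO3 depletion library and 14507410 in the control library. FOXO3 stood at 2.94 FPKM in the co-depletion, 2.79 FPKM in the FoxO3 depletion and 12.2 FPKM in the control. GMNN, which encodes Geminin, stood at 37.0, 112.2 and 112.3 FPKM in the same libraries. The mesenchymal genes VIM and CD44 were abundant in all 3 libraries, at 574.3 to 607.3 and 630.8 to 935.2 FPKM. The hormone receptor genes ESR1 and PGR were at most 0.12 FPKM, and ERBB2 stood at 38.0 to 46.8 FPKM. EPCAM stood at 8.95 to 13.75 FPKM and CDH1 at 0.42 to 1.02 FPKM. The 5 leukocyte markers summed to 9.91, 8.60 and 8.45 FPKM in the co-depletion, the FoxO3 depletion and the control. Most of this was CD14, at 8.59, 8.09 and 6.76 FPKM in that order, while CD3E was listed at 0 in all. The 5 fibroblast markers summed to 39.1, 40.5 and 19.99 FPKM in that order of libraries, nearly all from COL1A1 and PDGFRB, while DCN was at most 0.06 FPKM. The 3 endothelial markers in the files summed to 5.83, 7.13 and 5.70 FPKM, nearly all from KDR. What part such cells or genes have in the results was not tested.

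Ratios to control also moved with base composition. Spearman's rho across 12649 named genes with a mean of at least 1 FPKM, between transcript GC content and the log2 ratio to control, was 0.425 in the co-depletion and 0.385 in the FoxO3 depletion. These are descriptions across genes of shared libraries. Each of the 10 genes is therefore set beside genes of like GC content, taken as the same fiftieth of the genes ranked by GC, 253 genes in each bin.

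The coding sequences of the 3 listed metallothioneins are shown because they let a reader see what the family is and how alike its members are. They are the spliced coding parts of GENCODE 29 transcripts on GRCh38, plus strand, from chr16:56625852-56626971 for MT1E, chr16:56608656-56609354 for MT2A and chr16:56682541-56684049 for MT1X. Capitals mark cysteine codons.
MT1E: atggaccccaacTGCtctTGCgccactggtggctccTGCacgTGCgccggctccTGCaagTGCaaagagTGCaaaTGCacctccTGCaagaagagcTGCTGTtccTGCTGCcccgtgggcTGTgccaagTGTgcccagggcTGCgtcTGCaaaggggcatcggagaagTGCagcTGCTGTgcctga
MT2A: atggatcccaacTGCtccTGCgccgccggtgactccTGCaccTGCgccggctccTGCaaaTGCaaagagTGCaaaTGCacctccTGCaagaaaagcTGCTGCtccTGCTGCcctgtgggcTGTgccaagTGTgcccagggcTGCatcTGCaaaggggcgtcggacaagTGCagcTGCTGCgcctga
MT1X: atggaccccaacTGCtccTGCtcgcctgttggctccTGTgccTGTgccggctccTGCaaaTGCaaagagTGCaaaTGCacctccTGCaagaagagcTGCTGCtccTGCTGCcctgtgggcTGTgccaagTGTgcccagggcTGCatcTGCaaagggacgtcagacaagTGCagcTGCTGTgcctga
Each has 186 bases in 3 coding exons, and 20 of its 61 codons, or 32.8%, encode cysteine. All 20 cysteine codons stand at the same places in the 3 genes. MT1E and MT2A differ at 14 bases (92.5% identity), MT2A and MT1X at 14, and MT1E and MT1X at 17 (90.9%). Of the 50-base windows of their transcripts, 7.1% in MT1E, 3.02% in MT2A and 3.64% in MT1X occur in another metallothionein as well. How the authors counted reads that match several genes is not given, and the split of reads among these genes is uncertain by an amount that was not measured.

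The region upstream of the start is shown for the 2 listed metallothioneins that the promoter table holds, since it is where metal response elements lie. The core motif of that element was searched as TGCACNC and TGCGCNC, on both strands, in the 250 bases before the RefSeq start on GRCh38.p14. Capitals mark the matches. MT2A is at chr16:56608334-56608583 and MT1X at chr16:56682220-56682469, both on the plus strand.
MT2A upstream: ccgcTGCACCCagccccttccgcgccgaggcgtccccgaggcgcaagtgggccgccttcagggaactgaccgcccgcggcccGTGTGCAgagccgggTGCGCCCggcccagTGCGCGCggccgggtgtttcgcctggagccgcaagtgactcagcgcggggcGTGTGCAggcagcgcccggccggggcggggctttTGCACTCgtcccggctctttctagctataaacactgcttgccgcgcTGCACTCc
MT1X upstream: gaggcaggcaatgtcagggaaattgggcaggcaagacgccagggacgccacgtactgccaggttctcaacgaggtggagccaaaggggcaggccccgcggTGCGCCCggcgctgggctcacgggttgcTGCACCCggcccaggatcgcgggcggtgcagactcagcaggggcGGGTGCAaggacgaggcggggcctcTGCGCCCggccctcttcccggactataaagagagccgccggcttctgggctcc
The MT2A window held 7 matches and the MT1X window held 4, with matches that overlap counted apart. Of 35116 windows of this length in the table, 24.8% held at least 1 match, 0.37% at least 4 and 0.0313% at least 7. Of the 10 listed genes, 8 had an entry. SLC30A1 and SLC39A6 had 1 match each, and MTF1, SLC30A5, SLC30A7 and SLC39A10 had 0. A match is a string of letters, not a bound site.

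MT1E, whose ratio to control was the lowest of the 3 measured metallothioneins, stood at 29.5 FPKM in the co-depletion, 29.4 FPKM in the FoxO3 depletion and 138.2 FPKM in the control, from 213, 186 and 1179 reads. The control library was high and both depleted libraries were low and nearly equal. The co-depletion level was 21.4% of control, with an exact 95% counting interval of 18.4% to 24.7%. In the FoxO3 depletion it was 21.3% of control (18.1% to 24.9%). These intervals, here and for every gene, cover counting error only and compare libraries, not conditions. Ranked by FPKM among the 12649 genes, MT1E stood at place 4650 in the co-depletion, 4628 in the FoxO3 depletion and 961 in the control. In bulk RNA, fewer cells that express a gene and less of its RNA per cell cannot be told apart.

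MT2A, the most abundant metallothionein in the line, stood at 340.7 FPKM in the co-depletion, 365.3 FPKM in the FoxO3 depletion and 740.8 FPKM in the control, from 2821, 2653 and 7254 reads. Again the control was the high library. The level was 46.0% of control in the co-depletion (44.0% to 48.0%) and 49.3% in the FoxO3 depletion (47.2% to 51.6%). Its rank among the 12649 genes was 312 in the co-depletion, 288 in the FoxO3 depletion and 90 in the control.

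MT1X was close to the limit of detection, at 0.20 FPKM in the co-depletion, 0.46 FPKM in the FoxO3 depletion and 0.93 FPKM in the control. These values rest on 2, 4 and 11 reads. The control was again highest, but the counting interval of the ratio reached from 2.32% to 98.5% of control in the co-depletion and from 11.4% to 165.4% in the FoxO3 depletion, so a difference was not detectable at this depth in the second of these comparisons.

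**Figure D1:**
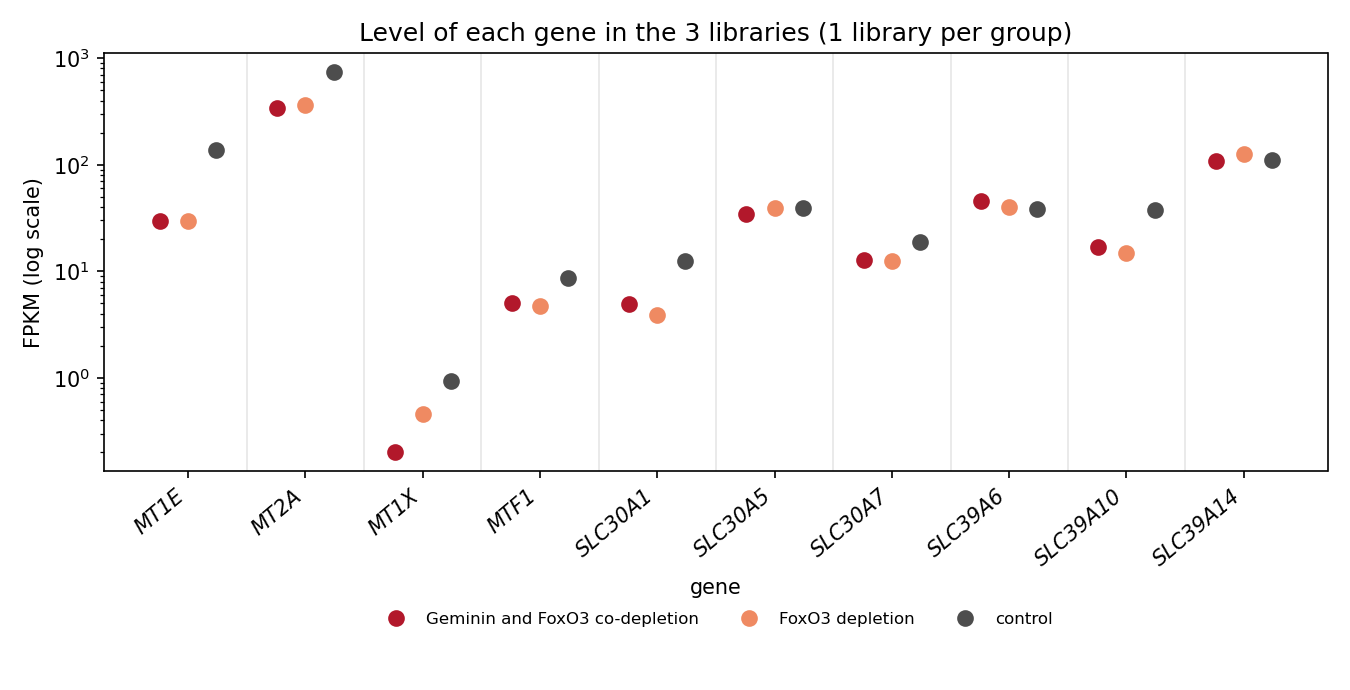
FPKM of the 10 listed genes (log axis) in the co-depletion, FoxO3 depletion and control libraries, 1 point per library, with 1 library per group and no error between cultures. MT1E stands at 138.2 FPKM in the control and at 29.5 and 29.4 FPKM in the co-depletion and the FoxO3 depletion, while SLC39A14 lies between 107.8 and 125.6 FPKM throughout.

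The other metallothioneins contributed little RNA. MT1A, the only further family member with a mean of at least 1 FPKM, stood at 4.94 FPKM in the co-depletion, 5.40 FPKM in the FoxO3 depletion and 9.40 FPKM in the control, from 24, 23 and 54 reads. MT1F stood at 0.36, 0.54 and 1.40 FPKM in these libraries on 3, 4 and 14 reads. MT1M had 1, 0 and 6 reads and MT3 had 1, 0 and 2 reads in the same order. MT1B, MT1G, MT1H and the epithelial gene MT4 were listed at 0 in all 3 libraries. Of the 11 family members, 7 were above 0 in at least 1 library, and in all 7 the control had the highest level, although 4 of these rest on 14 or fewer reads per library.

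Summed over the family, metallothionein RNA came to 376.0 FPKM in the co-depletion, 401.0 FPKM in the FoxO3 depletion and 891.7 FPKM in the control. That was 0.0523%, 0.0558% and 0.127% of all FPKM in these libraries. MT2A made up 90.6% of the sum in the co-depletion, 91.1% in the FoxO3 depletion and 83.1% in the control. MT1E made up 7.85% in the co-depletion, 7.33% in the FoxO3 depletion and 15.5% in the control, so the makeup of the family differed as well as its sum. MT2A stood 11.5 and 12.4 times as high as MT1E in FPKM in the co-depletion and the FoxO3 depletion, against 5.36 times in the control.

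The 11 family members counted above all lie on chromosome 16, with no other measured protein-coding gene inside the cluster. The 5 nearest measured genes on each side served as a local comparison. Of these 10 neighbours, 0 were at least 2-fold lower in either comparison with control. Over all genes 2.25% were in the co-depletion and 5.23% in the FoxO3 depletion, shares at which 10 genes would hold few or none. Of the 3 measured metallothioneins 2 were, MT1E and MT2A, but both are on the list drawn up with these ratios in view. The neighbours' median log2 ratio was -0.17 in the co-depletion and -0.17 in the FoxO3 depletion.

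MTF1, the factor that senses zinc and switches metallothionein genes on, stood at 5.02 FPKM in the co-depletion, 4.74 FPKM in the FoxO3 depletion and 8.68 FPKM in the control. The reads behind these levels were 258, 214 and 528. Both depleted libraries were low: the level was 57.8% of control in the co-depletion (49.6% to 67.2%) and 54.6% in the FoxO3 depletion (46.4% to 64.2%).

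SLC30A1 encodes ZnT1, the exporter at the plasma membrane. It stood at 4.93 FPKM in the co-depletion, 3.92 FPKM in the FoxO3 depletion and 12.6 FPKM in the control, from 331, 231 and 999 reads. The FoxO3 depletion was the lowest library, at 31.2% of control (26.9% to 36.0%), and the co-depletion stood at 39.2% (34.5% to 44.4%). Its ratio was the lowest of the listed transporters before adjustment for GC content, though not after it.

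The exporters of the secretory pathway differed less. SLC30A7, or ZnT7, which loads zinc into the Golgi, stood at 12.8 FPKM in the co-depletion, 12.4 FPKM in the FoxO3 depletion and 18.6 FPKM in the control. Both depleted libraries were lower, at 68.7% of control (61.5% to 76.7%) in the co-depletion and 66.4% (59.1% to 74.6%) in the FoxO3 depletion. SLC30A5, or ZnT5, which works as a dimer with ZnT6 in the early secretory pathway, stood at 34.6 FPKM in the co-depletion, 38.9 FPKM in the FoxO3 depletion and 39.6 FPKM in the control. Its co-depletion level was 87.5% of control (78.4% to 97.6%). The FoxO3 depletion level was 98.2% (88.0% to 109.6%), an interval that holds the control level.

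Among the importers, SLC39A10 stood apart. It encodes ZIP10, which brings zinc in at the plasma membrane and whose gene MTF1 represses in mouse and zebrafish. SLC39A10 stood at 16.9 FPKM in the co-depletion, 14.9 FPKM in the FoxO3 depletion and 37.5 FPKM in the control, from 458, 354 and 1200 reads. The control was the high library, with 45.1% of its level in the co-depletion (40.4% to 50.3%) and 39.8% in the FoxO3 depletion (35.2% to 44.8%).

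SLC39A6, which encodes ZIP6, the closest relative of ZIP10 and its partner in a heteromer, ran the other way. It stood at 45.8 FPKM in the co-depletion, 40.3 FPKM in the FoxO3 depletion and 38.3 FPKM in the control, so the co-depletion was the high library. The ratio was 119.6% of control in the co-depletion (110.5% to 129.4%) and 105.1% in the FoxO3 depletion (96.5% to 114.3%).

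SLC39A14 encodes ZIP14, an importer of zinc, iron and manganese that inflammatory cytokines induce in liver. It stood at 107.8 FPKM in the co-depletion, 125.6 FPKM in the FoxO3 depletion and 110.6 FPKM in the control, on 2003, 2047 and 2430 reads. Here the FoxO3 depletion was the high library, at 113.6% of control (107.0% to 120.5%). The co-depletion stood at 97.5% (91.8% to 103.5%), an interval that holds the control level.

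The order of the 10 genes by FPKM therefore differed between libraries mainly through MT1E. MT2A was first and MT1X last in all 3. MT1E stood at place 5 in both depleted libraries, below SLC39A14, SLC39A6 and SLC30A5, and at place 2 in the control. In the control, SLC30A5, SLC39A6 and SLC39A10 followed each other closely, with counting intervals of 36.9 to 42.5, 36.2 to 40.5 and 35.4 to 39.7 FPKM that overlap. In the co-depletion, SLC39A10 stood at 15.4 to 18.5 FPKM by its interval, below SLC30A5 at 31.9 to 37.6 FPKM and SLC39A6 at 43.4 to 48.4 FPKM. In the FoxO3 depletion its interval was 13.4 to 16.5 FPKM, again below those of SLC30A5 and SLC39A6, which overlap each other. MTF1 and SLC30A1 had overlapping intervals in both depleted libraries, and in the control SLC30A1 was the higher.

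By size alone, 4 of the 9 measured genes were at least 2-fold lower than control in the co-depletion on the log2(FPKM + 1) scale: MT1E (log2 ratio -2.19), SLC30A1 (-1.20), MT2A (-1.12) and SLC39A10 (-1.10). Over all 12649 genes, 2.25% were that much lower. The same 4 genes passed in the FoxO3 depletion, at -2.20 for MT1E, -1.46 for SLC30A1, -1.27 for SLC39A10 and -1.02 for MT2A, where 5.23% of all genes did. At 1.5-fold MTF1 joined them in both comparisons, at -0.69 in the co-depletion and -0.75 in the FoxO3 depletion, making 5 lower genes, where 12.3% and 16.7% of all genes passed. None of the 9 was 2-fold higher, where 0.625% of all genes were in the co-depletion and 0.672% in the FoxO3 depletion. None was 1.5-fold higher either, where 4.02% and 4.0% of all genes were. The median log2 ratio of the 9 genes was -0.69 in the co-depletion and -0.75 in the FoxO3 depletion, beside -0.06 and -0.07 over all genes. The list was chosen on these contrasts, and both use the same control library, so neither the counts nor their likeness supports anything further.

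**Figure D2:**
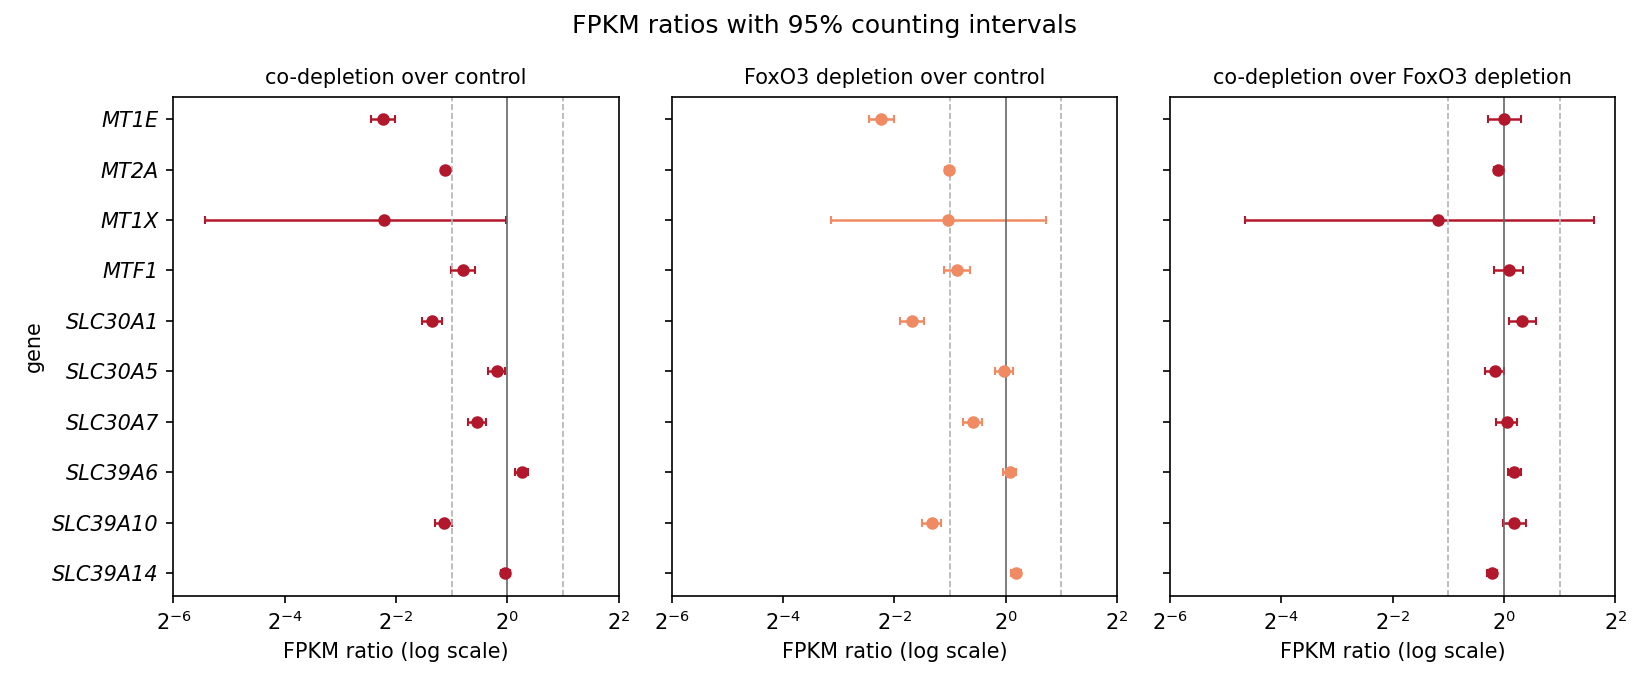
FPKM ratio of each listed gene (log axis, powers of 2) for the co-depletion over control, the FoxO3 depletion over control and the co-depletion over the FoxO3 depletion, with bars for the exact 95% counting interval of the ratio of 2 libraries, a solid line at equal levels and dashed lines at 2-fold. MT1E lies at 0.214 and 0.213 of control, SLC30A5, SLC39A6 and SLC39A14 lie between 0.875 and 1.196 of control, and the bars of MT1X are the widest.

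MT1E and MT2A remained more than 2-fold lower when set beside genes of like GC content. MT1E has 53.7% GC, and its co-depletion ratio was the lowest of the 253 genes in its bin, whose median log2 ratio was 0.03. It was also the lowest of its bin in the FoxO3 depletion. MT2A, with 55.7% GC, was among the 3 lowest of its 253 genes in both comparisons. After the bin medians were subtracted, MT1E stood at -2.22 in both comparisons, and MT2A stood at -1.15 in the co-depletion and -1.06 in the FoxO3 depletion.

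SLC30A1 and SLC39A10 have GC-poor transcripts, at 38.0% and 41.4%, and genes of that composition were themselves lower in the depleted libraries. The bin of SLC30A1 had a median log2 ratio of -0.54 in the co-depletion and -0.73 in the FoxO3 depletion, with 9.09% and 26.9% of its genes at least 2-fold lower. SLC30A1 was number 12 from the bottom of its bin in the co-depletion and number 15 in the FoxO3 depletion. Its adjusted log2 ratio was -0.66 in the co-depletion and -0.73 in the FoxO3 depletion. SLC39A10 was number 7 and number 8 from the bottom of a bin with medians of -0.40 and -0.45, which left adjusted values of -0.71 and -0.83. What part base composition plays in these ratios was not tested.

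The remaining genes had smaller ratios or changed sign with the adjustment. SLC30A7, at 38.1% GC, stood at 0.03 in the co-depletion and 0.18 in the FoxO3 depletion after it, against -0.51 and -0.55 before it, and lay near the middle of its bin. SLC39A6 stood farther above 0 after it, at 0.55 and 0.32, and was number 232 of 253 from the bottom in the co-depletion and number 194 in the FoxO3 depletion. SLC30A5 came to 0.04 and 0.22, and SLC39A14, which is not GC-poor, to -0.07 and 0.14. MTF1 stood at -0.63 and -0.72. After adjustment 2 of the 9 genes, MT1E and MT2A, were 2-fold lower in each comparison, where 1.03% of all genes were in the co-depletion and 1.79% in the FoxO3 depletion. At 1.5-fold, MT1E, MT2A, MTF1, SLC30A1 and SLC39A10 were lower in both, where 6.2% and 9.37% of all genes were.

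**Figure D3:**
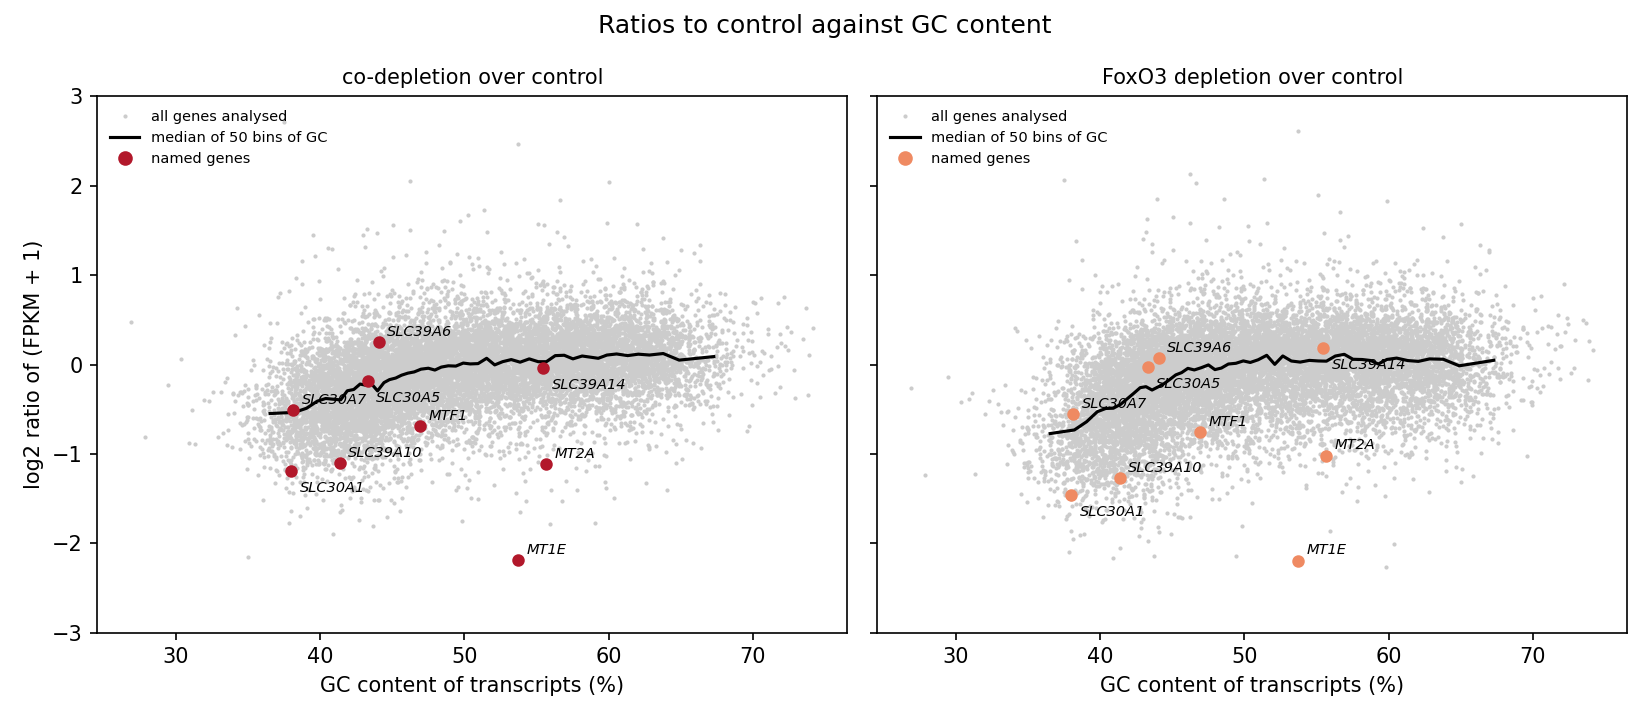
Log2 ratio to control against transcript GC content in percent for the 12649 measured genes (grey), with the median of each of 50 GC bins as a line and the 9 measured listed genes labelled, for the co-depletion and the FoxO3 depletion. The line falls toward low GC; MT1E and MT2A lie far below it at 53.7% and 55.7% GC, and SLC30A7 lies close to it.

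The 2 depleted libraries, which differ by the added Geminin depletion, differed little in the size of these ratios. None of the 9 measured genes was 1.5-fold higher or lower in the co-depletion than in the FoxO3 depletion, where 1.35% of all genes were higher and 0.617% lower, and none was 2-fold higher or lower, where 0.126% and 0.0632% were. MT1E in the co-depletion stood at 100.5% of its level in the FoxO3 depletion (82.1% to 123.0%). MT2A stood at 93.3% (88.4% to 98.4%) and MTF1 at 105.8% (87.9% to 127.4%). SLC30A1 was higher in the co-depletion, at 125.7% of the FoxO3 depletion (105.9% to 149.3%), and so was SLC39A6, at 113.8% (104.6% to 123.8%). SLC39A14 was lower, at 85.8% (80.7% to 91.3%). The GC bin of SLC30A1 itself had a median log2 ratio of 0.17 here, and SLC30A1 was number 165 of its 253 genes from the bottom. Its log2 ratio of 0.27 came to 0.10 after the GC adjustment. SLC39A6 stood at 0.18 and SLC39A14 at -0.22 both before and after it. The intervals of SLC30A5, at 89.1% (79.2% to 100.3%), SLC30A7, at 103.4% (90.9% to 117.8%), and SLC39A10, at 113.5% (98.6% to 130.7%), hold 100%. For MT1X, 2 against 4 reads gave 43.9% with an interval of 3.97% to 306.0%.

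Across the whole ZnT family, 6 of the 10 listed genes had a mean of at least 1 FPKM. SLC30A1 alone was 2-fold lower in the co-depletion and in the FoxO3 depletion, beside 2.25% and 5.23% of all genes, and after the GC adjustment it was not, at -0.66 and -0.73. At 1.5-fold on the log2(FPKM + 1) scale, SLC30A9 joined it in the FoxO3 depletion, where 16.7% of all genes reached that size. The adjusted log2 ratio of SLC30A9 was -0.26. SLC30A9, a mitochondrial zinc exporter, stood at 36.6 FPKM in the co-depletion, 28.7 FPKM in the FoxO3 depletion and 50.3 FPKM in the control. SLC30A6, the partner of ZnT5, stood at 17.9, 18.6 and 23.8 FPKM in these libraries. The vesicular exporter SLC30A4 stood at 3.09, 3.30 and 3.82 FPKM in the same order. All 6 had a log2 ratio below 0 in both comparisons, with medians of -0.42 in the co-depletion and -0.45 in the FoxO3 depletion, but after the GC adjustment the medians were 0.04 and 0.13.

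In the ZIP family 11 of 14 listed genes were measured, and SLC39A10 was the only member past 1.5-fold without adjustment, lower in both comparisons. Over all genes 12.3% were that much lower and 4.02% higher in the co-depletion, and 16.7% and 4.0% in the FoxO3 depletion. After the GC adjustment SLC39A8 was 1.5-fold higher in the co-depletion as well, at a log2 ratio of 0.60. The family's median log2 ratio was 0.25 in the co-depletion and 0.17 in the FoxO3 depletion, and 0.17 and 0.14 after adjustment. SLC39A7, or ZIP7, which releases zinc from the endoplasmic reticulum, was the most abundant, at 236.6 FPKM in the co-depletion, 219.0 FPKM in the FoxO3 depletion and 179.1 FPKM in the control. The control was the low library there, as it was for SLC39A8, or ZIP8, an importer of zinc and manganese, at 48.2, 42.5 and 37.2 FPKM in the same order. The plasma membrane importer SLC39A1 stood at 129.5 FPKM in the co-depletion, 129.6 FPKM in the FoxO3 depletion and 108.6 FPKM in the control. SLC39A13, or ZIP13 of the secretory pathway, stood at 112.1, 99.9 and 88.7 FPKM in that order. SLC39A4, the importer lost in acrodermatitis enteropathica, stood at 26.7 FPKM in the co-depletion, 21.2 FPKM in the FoxO3 depletion and 21.1 FPKM in the control. In all of these the control was the lowest library. For SLC39A4, however, the FoxO3 depletion stood at 100.5% of control (85.6% to 117.8%), an interval that holds the control level. The last 3 measured members were SLC39A9 at 54.7, 67.2 and 54.9 FPKM, SLC39A3 at 18.2, 19.7 and 18.5 FPKM, and SLC39A11 at 10.0, 10.9 and 11.8 FPKM, again in the co-depletion, the FoxO3 depletion and the control.

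**Figure D4:**
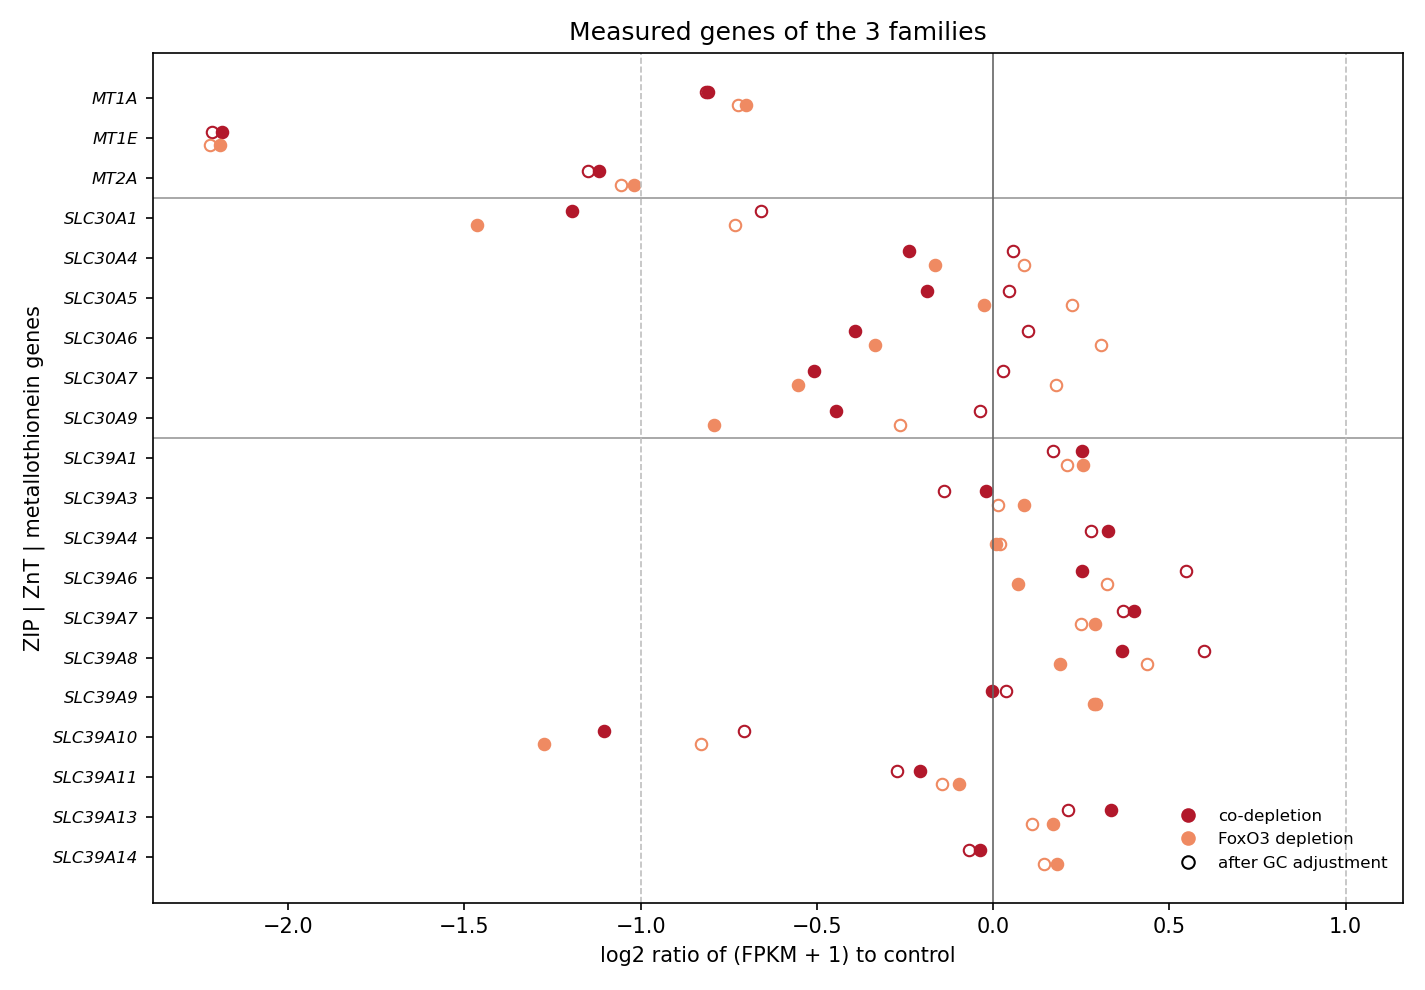
Log2(FPKM + 1) ratios to control of the measured metallothioneins (top), ZnT exporters (middle) and ZIP importers (bottom) in the co-depletion and the FoxO3 depletion, with filled points as measured, open points after subtraction of the median of genes of like GC content, and dashed lines at 2-fold. The 3 measured metallothioneins stay below 0 in both forms, most ZnT genes cross from below 0 to above it with the adjustment, and SLC39A10 lies apart from the other ZIP genes at -1.10 and -1.27 as measured.

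Outside the metallothioneins, 9 genes known as MTF1 targets were listed and measured, SLC30A1 and SLC39A10 among them. At 1.5-fold, 3 of the 9 were lower in each comparison, beside 12.3% of all genes in the co-depletion and 16.7% in the FoxO3 depletion. They were SLC30A1, SLC39A10 and SLC40A1. SLC30A1 and SLC39A10 are on the list drawn up with these ratios in view, so their part in the count was known beforehand. MTF1 represses SLC39A10 in mouse and zebrafish, so lower does not mean the same for every gene counted. SLC40A1, the iron exporter ferroportin, stood at 6.38 FPKM in the co-depletion, 6.35 FPKM in the FoxO3 depletion and 12.5 FPKM in the control. PGF, a placental growth factor of the VEGF family named here after its values were seen, was the 1 gene past 1.5-fold higher, where 4.02% and 4.0% of all genes were. It stood at 17.01 FPKM in the co-depletion, 15.1 FPKM in the FoxO3 depletion and 9.29 FPKM in the control. After the GC adjustment its log2 ratios were 0.70 in the co-depletion and 0.584 in the FoxO3 depletion, the latter just short of 1.5-fold. The members of the list ran in both directions. Their median log2 ratio was -0.10 in the co-depletion and -0.20 in the FoxO3 depletion.

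Zinc-dependent ectoenzymes receive their metal in the secretory pathway through ZnT5, ZnT6 and ZnT7. Of 7 listed, 3 were measured and 2 were at least 1.5-fold lower in both comparisons, beside 12.3% of all genes in the co-depletion and 16.7% in the FoxO3 depletion. NT5E, or CD73, which makes adenosine from AMP outside the cell, stood at 144.5 FPKM in the co-depletion, 145.2 FPKM in the FoxO3 depletion and 288.6 FPKM in the control. ENPP1, which makes pyrophosphate from extracellular nucleotides, stood at 37.7 FPKM in the co-depletion, 34.5 FPKM in the FoxO3 depletion and 74.1 FPKM in the control. The alkaline phosphatase gene ALPP stood at 8.88, 7.78 and 7.64 FPKM in that order. Its counting intervals were 94.0% to 143.9% of control in the co-depletion and 80.9% to 128.0% in the FoxO3 depletion. Both hold the control level.

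The genes most like MT1E over the 3 libraries were sought by the Euclidean distance of their pair of log2 ratios to control, among 11434 protein-coding genes. The nearest were CENPF, a kinetochore protein, at a distance of 0.30 on the log2 scale, HSD17B12, an enzyme of fatty acid elongation, at 0.38, FAM111B at 0.42, and MRPL10, a mitochondrial ribosomal protein, and the splicing factor MBNL1 at 0.52 each. CENPF stood at 36.4 FPKM in the co-depletion, 30.0 FPKM in the FoxO3 depletion and 137.9 FPKM in the control, levels close to those of MT1E. Every one of these 5 genes was closer to control in the co-depletion than MT1E was. For MT2A the 5 nearest were UGGT2, TMEM71, KPNA3, IFT74 and SH2B3, at distances of 0.04 to 0.07. The ratios were not adjusted for GC content here. Apart from SH2B3, at 61.5% GC, the genes nearest to MT2A have 37.9% to 43.8%, against 55.7% in MT2A. Apart from MRPL10, at 55.9%, those nearest to MT1E have 37.8% to 43.7%, against 53.7% in MT1E. With only 2 ratios behind each distance, likeness here means a similar size of difference and no more.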

How the data were processed

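RNA from 3 MDA-MB-231 cultures was sequenced, 1 library per group. The authors deposited FPKM per Ensembl gene for each library. TopHat2 2.0.9 is named per the submitters' processing notes; no source used here states the counter, the build, the annotation or the strandedness. Groups were read from the titles with the design text.

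FPKM steps resolved into whole reads (relative tolerance 1e-08) in 97.4% of 20591 genes with values in 2 or 3 libraries, against 0.9% of 2000 random values, and gave exact 95% counting intervals. Names, GC content and lengths came from GENCODE 29, which matched 45342 of 48162 IDs. Genes with a mean of at least 1 FPKM were compared as log2(FPKM + 1), which understates ratios of low genes. A gene was called by size, at 2-fold. With 1 library per group no test, SD or p-value exists. The GC adjustment subtracted the median ratio of 50 GC bins. The ratios, counting intervals and adjustment were tested on simulated data. The recovery of reads was not part of that test and was compared only with the random values. Python 3.11.15, pandas 2.3.3 and SciPy 1.17.1 were used.

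The members and all lists were chosen with earlier results of these data known. Named were all members, every measured metallothionein, ZnT and ZIP gene, up to 3 measured genes of each other list with the largest ratio to control, and the 5 genes nearest to MT1E and to MT2A. Other genes named include low or unmeasured family members, markers, targeted genes, PER1 and the receptor gene NR3C1. Alternatives were 2 other pseudocounts, 2 other minimums, 2 rescalings, 2 other fold rules and adjustment for GC content, with or without length.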

Additional observations from a re-analysis of the deposited data

How the results depend on the processing

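In the co-depletion against control, 4 genes were 2-fold lower. That count was 1 under a 3-fold rule (MT1E), 2 after adjustment for GC content and 2 after adjustment for GC content and transcript length. In the FoxO3 depletion against control the count was also 4, and it was again 1, 2 and 2 under these settings. The GC-adjusted counts leave out SLC30A1 and SLC39A10. Rescaling by the median ratio of genes left 3 in the FoxO3 depletion, where MT2A came to a log2 ratio of -0.94. Between the depleted libraries the count was 0 under every setting. Of 216 recomputed ratios of single genes, 191 stayed inside the counting interval, 25 moved outside it and 0 changed sign after being called. Of those 25, 10 came with the GC adjustment, where 17 stayed inside, and 13 with GC and length, where 14 did. The 2 other minimums leave each ratio as it is, so the 27 ratios under each could not move. Rescaling to TPM put the median of all genes at -0.09 in the co-depletion and -0.11 in the FoxO3 depletion, against -0.06 and -0.07 as deposited. No paired analysis was possible because each group has 1 library. Counting error is the only error that can be estimated, and it limits MT1X most, at 2 to 11 reads.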

Other observations

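Copper-handling genes, which share metallothionein as a metal store, were measured in 8 of 9 cases. On the log2(FPKM + 1) scale, 0 of the 8 were 1.5-fold lower. Over all genes 12.3% were in the co-depletion and 16.7% in the FoxO3 depletion. On that scale 0 were 1.5-fold higher, where 4.02% and 4.0% of all genes were. So small a list would hold few such genes at those shares. ATP7A, the copper pump, stood at 2.35 FPKM in the co-depletion, 1.88 FPKM in the FoxO3 depletion and 3.16 FPKM in the control. Its FPKM in the FoxO3 depletion was 59.48% of control (48.75% to 72.29%). On the log2(FPKM + 1) scale, which understates ratios of low genes, its log2 ratio there was -0.53, short of 1.5-fold. CCS, the copper chaperone of SOD1, stood at 21.8, 18.2 and 25.1 FPKM in these libraries, and COX17, which carries copper to cytochrome oxidase, at 43.7, 44.6 and 36.2 FPKM. The median log2 ratio of the list was 0.02 in the co-depletion and 0.04 in the FoxO3 depletion.

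Among genes of the metal and oxidative stress response, HMOX1, or heme oxygenase, was higher, at 17.5 FPKM in the co-depletion, 20.8 FPKM in the FoxO3 depletion and 9.56 FPKM in the control. HSPA1B stood at 53.3, 57.6 and 34.3 FPKM in that order, although its reads cannot be told apart with certainty from those of its near-identical copy HSPA1A. HSPH1, a co-chaperone, stood at 66.2 FPKM in the co-depletion, 61.9 FPKM in the FoxO3 depletion and 85.3 FPKM in the control, short of 1.5-fold. Its log2 ratio changed sign with the GC adjustment, to 0.13 in the co-depletion and 0.18 in the FoxO3 depletion, against -0.36 and -0.46 before it. Of the 9 measured genes, 2 were 1.5-fold higher in each comparison, beside 4.02% of all genes in the co-depletion and 4.0% in the FoxO3 depletion. Those 2 were HMOX1 and HSPA1B. After the GC adjustment HMOX1 stood at log2 ratios of 0.69 in the co-depletion and 0.97 in the FoxO3 depletion. HSPA1B stood at 0.54 and 0.68 after it, short of 1.5-fold in the co-depletion. None of the 9 was 1.5-fold lower, beside 12.3% and 16.7% of all genes.

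Glucocorticoids are known inducers of metallothionein genes, and their other induced genes ran in both directions. DUSP1, a MAP kinase phosphatase, was higher, at 38.8 FPKM in the co-depletion, 48.8 FPKM in the FoxO3 depletion and 12.4 FPKM in the control. SGK1, a serum- and glucocorticoid-regulated kinase, was higher too, at 30.8, 35.4 and 20.1 FPKM in that order. KLF9 stood at 1.51 FPKM in the co-depletion, 1.24 FPKM in the FoxO3 depletion and 2.54 FPKM in the control. The list also holds NR3C1, the gene of the glucocorticoid receptor itself. Of 7 measured genes, 2 were 1.5-fold higher in the co-depletion and 3 in the FoxO3 depletion, beside 4.02% and 4.0% of all genes. The 3 included PER1, at a log2 ratio of 0.62 in the FoxO3 depletion. After the GC adjustment PER1 stood at 0.56, short of 1.5-fold. On the log2(FPKM + 1) scale, 0 in the co-depletion and 2 in the FoxO3 depletion were 1.5-fold lower, beside 12.3% and 16.7% of all genes. Those 2 were KLF9 and NR3C1, at log2 ratios of -0.66 and -0.62 in the FoxO3 depletion. After the GC adjustment they stood at -0.60 and -0.45. In the co-depletion KLF9 fell short of 1.5-fold on that scale, at -0.50, although its FPKM was 59.44% of control (46.02% to 76.35%).

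Of 9 genes in the files that were listed as metallothionein pseudogenes, 7 were at 0 in every library. MT1HL1, on chromosome 1 and at 0 in all 3 libraries, is among the 9 although GENCODE 29 types it as protein-coding. MT1P1 was above 0 only in the co-depletion, at 0.89 FPKM, and MT1XP1 only in the FoxO3 depletion, at 1.499 FPKM. Genes that overlap the listed ones in GENCODE 29 and have a value were at most 0.29 FPKM in any library.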
